A study of Mus musculus with 384 samples.

Results

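The 41 genes described here are cell cycle genes grouped by the phase in which they are usually expressed, in T cells that had entered a mouse melanoma. They were chosen by name, with earlier results of these data known. All 41 were rows of the deposited table of 23420 gene symbols, and all were detected in at least 1 kept cell. Of these, 16 were treated as S members, which serve DNA replication and entry into S phase, and 23 as mitotic members, which serve G2 and mitosis. Stmn1 and Cks1b were placed in neither group. The cells came from B16F10 melanomas, a transplantable skin tumour line, in C57BL/6 mice that were labelled Il27ra knockout (KO) or wild type (WT). They were CD8 T cells labelled KO, CD8 T cells labelled WT, CD4 T cells labelled KO and CD4 T cells labelled WT, and each of these groups filled 1 plate. The titles give both plates of a genotype the same tag, read here as 1 source, an animal or pool. They also give each plate its own word (bird, cat, dog or rabbit) and a p-number. The labels explain neither the tag, the word nor the p-number, so 1 source per genotype is an assumption. The treatment label mentions CD8+ T cells alone, and the CD4 plates were assigned by their titles.

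A dividing cell copies its DNA in S phase and separates the copies in mitosis. The E2F transcription factors, released from Rb proteins when a cell commits to division, switch on genes of DNA replication. Later the MuvB, B-Myb and FoxM1 complexes switch on the genes of the spindle, the kinetochore and the destruction of cyclins, many of which carry a short promoter element called the cell cycle genes homology region (CHR). T cells in a tumour divide in part: activated CD8 cells and regulatory T cells can cycle in the tissue, while naive and memory cells mostly rest.

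Smart-seq2, a plate method that amplifies full-length cDNA of single cells without molecular identifiers, was run on 4 plates, each with 94 wells of single cells, a well of pooled cells (the population library) and an empty (no-cell) well. The unit is FPKM, fragments scaled to transcript length and sequencing depth, and detection here means 1 FPKM or above. Cells with 1000 or more detected genes were kept, which left 77 CD8 KO, 72 CD8 WT, 78 CD4 KO and 74 CD4 WT cells. The kept cells had a median of 2243, 2530.5, 2091 and 2047 detected genes on these plates, so the CD8 WT plate held the most genes per cell. Cd3e was detected in 85.9 to 93.5% of kept cells, Cd4 in 91% of CD4 KO and 89.2% of CD4 WT cells and in 1 CD8 KO cell, and Cd8a in 81.8% of CD8 KO and 84.7% of CD8 WT cells and in 2 CD4 WT cells. Il27ra, the targeted gene, was detected in 57.1% of CD8 KO and 51.4% of CD8 WT cells, and in 47.4% of CD4 KO and 36.5% of CD4 WT cells. In the population libraries it was at 92.9 FPKM in CD8 KO and 155.4 FPKM in CD8 WT, and at 133.4 FPKM in CD4 KO and 244.6 FPKM in CD4 WT, lower in KO where the share of single cells was higher. The labels do not say which part of the gene is deleted, so these values do not check the labels, and KO means the label throughout. With 1 plate per group no difference was tested. Genotype, animal and plate cannot be told apart, and cells of 1 plate are not replicates. Intervals are exact Clopper-Pearson 95% intervals and cover counting error only.

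The S members and the mitotic members were detected together in a small set of cells, and more of these were CD8 WT cells than cells of any other plate. A cell with 6 or more of the 16 S members was called S-high, and a cell with 8 or more of the 23 mitotic members mitotic-high. S-high cells made up 14 of 77 CD8 KO cells (18.2%, interval 10.3 to 28.6%), against 25 of 72 CD8 WT cells (34.7%, 23.9 to 46.9%). Mitotic-high cells made up 5 of 77 CD8 KO cells (6.49%, 2.14 to 14.5%), against 17 of 72 CD8 WT cells (23.6%, 14.4 to 35.1%). On the CD4 plates the S-high cells were 8 of 78 in KO (10.3%, 4.53 to 19.2%) and 7 of 74 in WT (9.46%, 3.89 to 18.5%). Mitotic-high cells were 1 of 78 in CD4 KO (1.28%, 0.0325 to 6.94%) and 2 of 74 in CD4 WT (2.70%, 0.329 to 9.42%). The CD8 WT plate thus had the highest share of both classes, and the CD4 plates were within each other's intervals.

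The CD8 shares moved with the number of genes a cell held. Within the plates, the Spearman correlation of the number of S members with the number of detected genes was 0.49 in CD8 KO, 0.76 in CD8 WT, 0.34 in CD4 KO and 0.37 in CD4 WT cells, as a description across cells that share a plate. Among 51 CD8 KO and 51 CD8 WT cells matched 1 to 1 on detected genes, within 5%, S-high cells were 12 in each set (23.5%). Mitotic-high cells were then 4 of 51 in KO (7.84%) and 8 of 51 in WT (15.7%). Over all kept cells there were 14 S-high KO and 25 S-high WT cells, so the match left out more of them in WT. Cells high for both groups had a median of 4465 detected genes, against 2107 in cells of neither class. Matching on genes thus also selects on class, and does not remove depth alone. Matching 34 and 34 CD8 cells on estimated read depth gave S-high shares of 29.4% in KO and 32.4% in WT, and mitotic-high shares of 11.8% in KO and 23.5% in WT. The S-high share, KO minus WT, was thus 0 points in the first matched set and -2.94 points in the other, against -16.5 points over all kept cells. The mitotic-high share was lower in KO in both matched sets, at a difference of -7.84 points in the first and -11.8 points in the other, against -17.1 points over all kept cells.

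RNA of other cell types also differed between the CD8 plates. Cells with a melanoma marker at 10 FPKM or more, leaving out Tyr, were 6 of 77 in KO (7.79%) and 14 of 72 in WT (19.4%). The summed level of the 6 melanoma markers ran from 0 to 1034 FPKM in CD8 KO cells (median 8.07). There Sox10 stayed under 1 FPKM throughout and the other 5 were detected. In CD8 WT cells the sum ran from 2.28 to 14139 FPKM (median 10.3), and all 6 were detected. Cells with 2 or more of the 9 myeloid markers at 10 FPKM or more were 1 in CD8 KO and 6 in CD8 WT. Csf1r, Cd14 and C1qa stayed under 1 FPKM in all CD8 KO cells, and C1qa did so in all CD8 WT cells. The summed level of the myeloid markers ran from 0 to 1911 FPKM in CD8 KO cells and from 0 to 9321 FPKM in CD8 WT cells, with a median of 0 in both. Cells with a B cell or stromal marker at 10 FPKM or more, leaving out Pecam1, were 4 in CD8 KO and 0 in CD8 WT. Without all cells that carried such RNA, S-high cells were 10 of 67 in CD8 KO (14.9%) and 17 of 52 in CD8 WT (32.7%), and mitotic-high cells 4 of 67 (5.97%) and 14 of 52 (26.9%). The difference, KO minus WT, was then -17.8 points for S-high and -21.0 points for mitotic-high cells. Over all kept cells these were -16.5 and -17.1 points. The rule at 10 FPKM was chosen after seeing the data, and the part of such RNA in the CD8 shares was not tested. Cd3e was detected in all 22 cells that were high for both groups.

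Crossing both classes placed 32 cells in S-high only, 22 in both and 3 in mitotic-high only, and the rest in neither. In CD8 KO 9 cells were S-high only and 5 in both, and in CD8 WT 11 were S-high only, 14 in both and 3 mitotic-high only. In CD4 KO 7 cells were S-high only and 1 in both, and in CD4 WT 5 were S-high only and 2 in both. Nearly all mitotic-high cells were therefore also S-high, and the 3 exceptions were CD8 WT cells. Of the S-high cells, 5 of 14 were also mitotic-high in CD8 KO (35.7%, 12.8 to 64.9%) and 14 of 25 in CD8 WT (56%, 34.9 to 75.6%), with intervals that overlap widely. The class limits are cuts through a range: 8 CD8 KO, 10 CD8 WT, 5 CD4 KO and 5 CD4 WT cells lay at the S cut or 1 member below it. At the mitotic cut the same count was 0, 5, 0 and 0.

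**Figure D1:**
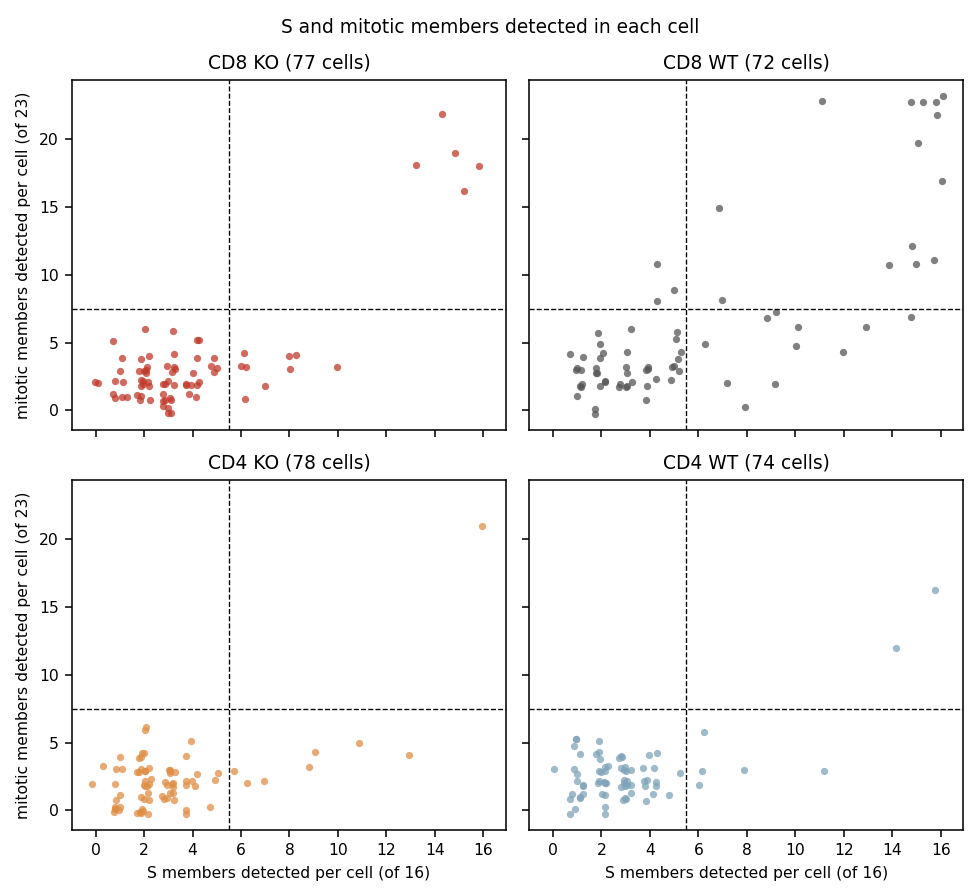
Number of S members (horizontal axis, of 16) and mitotic members (vertical axis, of 23) detected at 1 FPKM or more in each kept cell, 1 panel per plate, with a small shift added to separate points. Dashed lines mark the cuts at 6 and 8 members. Right of and above both lines lie 5 CD8 KO, 14 CD8 WT, 1 CD4 KO and 2 CD4 WT cells.

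Genes outside the 41 followed the same classes. Of 32 other S genes a median of 3 was detected in cells of neither class, 7 in S-high only cells, 24 in cells high for both and 4 in mitotic-high only cells. Of 34 other mitotic genes the medians were 4, 6, 22.5 and 10. Cells that were S-high only thus held more of the other S genes than cells of neither class, and only slightly more of the other mitotic genes. The number of detected genes moved with the classes too, with medians of 2107, 3168.5, 4465 and 2789, and its part in these counts was not tested. Nor was it tested whether any of these wells held 2 cells.

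**Figure D2:**
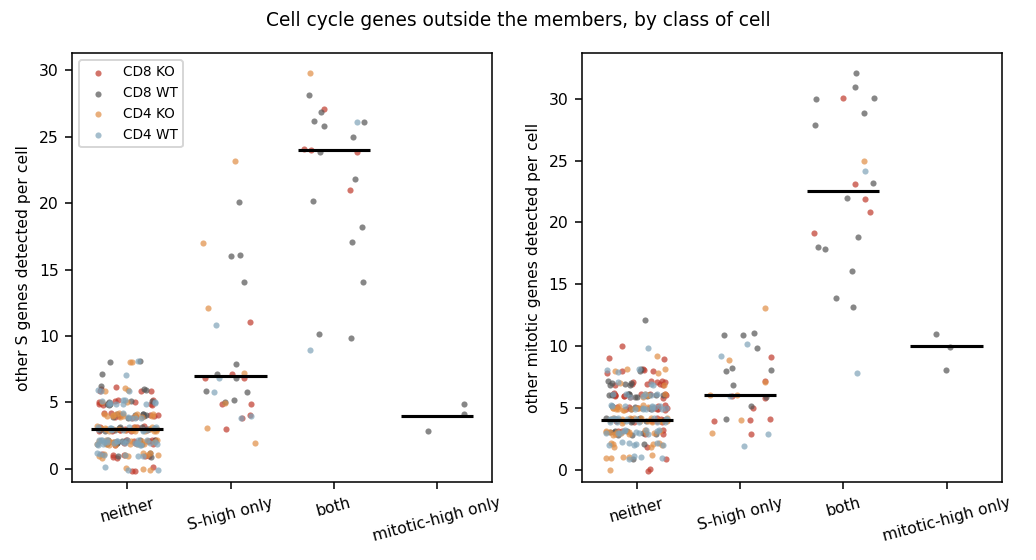
Number of cell cycle genes outside the members detected per kept cell, for 32 other S genes (left) and 34 other mitotic genes (right), by class. Points are cells coloured by plate and bars are medians. The cells high for both member groups have the highest medians, 24 and 22.5 genes, and overlap with some S-high only cells.

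The promoters of the 2 member groups held different shares of E2F and CHR motifs. RefSeq promoter windows (GRCm38.p6, 250 bases before to 50 after the start) were found for 13 S and 20 mitotic members; Ccne2, Gins2, Mcm4, Aurkb, Ccna2, Tpx2 and Stmn1 had none in the table used. Shown are 2 S members of the helicase, Mcm3 (chr1:20820263-20820562, minus strand) and Mcm6 (chr1:128359656-128359955, minus strand), the kinase Cdk1 (chr10:69352863-69353162, minus strand), and 2 mitotic members, Ccnb2 (chr9:70421505-70421804, minus strand) and Cdc20 (chr4:118437294-118437593, minus strand), because they carry the motifs that were more frequent in 1 group than in the other. Each is written 5′ to 3′ on the strand of its gene, and capitals mark matches on either strand to an E2F motif or to a CHR motif as spelled out after the sequences.
Mcm3: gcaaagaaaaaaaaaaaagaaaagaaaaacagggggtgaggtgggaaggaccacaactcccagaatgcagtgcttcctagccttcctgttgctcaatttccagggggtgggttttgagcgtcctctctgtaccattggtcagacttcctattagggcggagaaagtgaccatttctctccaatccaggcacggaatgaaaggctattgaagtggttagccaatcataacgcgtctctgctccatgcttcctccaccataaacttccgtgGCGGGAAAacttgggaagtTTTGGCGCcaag
Mcm6: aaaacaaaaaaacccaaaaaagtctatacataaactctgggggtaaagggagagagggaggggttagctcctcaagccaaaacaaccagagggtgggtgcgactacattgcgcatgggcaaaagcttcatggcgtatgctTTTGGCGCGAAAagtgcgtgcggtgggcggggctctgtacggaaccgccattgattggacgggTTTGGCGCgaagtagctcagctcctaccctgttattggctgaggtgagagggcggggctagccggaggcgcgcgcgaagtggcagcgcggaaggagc
Cdk1: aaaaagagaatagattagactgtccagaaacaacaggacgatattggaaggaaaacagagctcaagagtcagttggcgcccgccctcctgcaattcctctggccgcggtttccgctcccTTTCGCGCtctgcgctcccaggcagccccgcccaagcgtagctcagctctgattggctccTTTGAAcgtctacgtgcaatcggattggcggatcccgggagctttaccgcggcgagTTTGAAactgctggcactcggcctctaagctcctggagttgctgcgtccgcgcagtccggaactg
Ccnb2: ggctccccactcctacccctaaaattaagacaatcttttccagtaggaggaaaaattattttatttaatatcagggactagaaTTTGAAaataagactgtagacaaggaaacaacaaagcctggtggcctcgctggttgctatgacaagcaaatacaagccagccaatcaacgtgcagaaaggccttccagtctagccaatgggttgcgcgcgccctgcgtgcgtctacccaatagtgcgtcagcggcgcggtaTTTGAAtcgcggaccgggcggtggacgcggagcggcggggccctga
Cdc20: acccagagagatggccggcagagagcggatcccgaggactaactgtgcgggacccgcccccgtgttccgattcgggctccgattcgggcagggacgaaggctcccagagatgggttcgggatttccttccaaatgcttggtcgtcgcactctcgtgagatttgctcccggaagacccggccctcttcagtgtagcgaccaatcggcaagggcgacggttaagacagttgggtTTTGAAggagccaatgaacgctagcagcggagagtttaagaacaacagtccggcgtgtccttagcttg

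The E2F motif was searched on both strands as TTTCCCGC, TTTGGCGC, TTTCGCGC or TTTGCCGC, and matches may overlap, as 2 of the 3 in Mcm6 do. It was present in 6 of 13 S members (46.2%), in 1 of 20 mitotic members (5%, Cdk1) and in 704 of all 27025 genes with a window (2.61%). The CHR was searched as TTTGAA or TTTAAA. It was present in 7 of 13 S members (53.8%), 17 of 20 mitotic members (85%) and 30.6% of all genes. TTTGAA alone was present in 1 of 13 S members (7.69%), 14 of 20 mitotic members (70%) and 20.2% of all genes. CCAAT, the NF-Y motif often found near a CHR, was in 10 of 13 S members, in 18 of 20 mitotic members and in 41.1% of all genes. Of the other S and other mitotic genes, 9 of 23 and 2 of 29 held an E2F motif, and 5 and 20 held TTTGAA. A match is a stretch of letters and not a measured binding site.

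Between the CD8 plates, 40 of the 41 members had a lower mean level in cells labelled KO, and most of the wider gaps were narrower in cells matched on detected genes or on estimated read depth. A level averages log2(FPKM + 1) across the kept cells of a plate, and a difference is KO minus WT on that scale, which mixes how many cells had a gene with how much they had and understates changes of low genes. In CD8 cells 18 members were lower by 1 log2 or more, of which 7 were S members, 9 mitotic members and both unplaced ones. The background was 9.91% of 7518 genes lower by that much. No member was higher by 1 log2, against a background of 2.22%. Of the 41 members, 35 passed the filter that defines this background, detection in 10% of cells, and all 18 were among them. The median difference was -0.91 over the 16 S members and -0.94 over the 23 mitotic members, against -0.22 over all genes tested, of which 68.1% were below 0. In cells matched on detected genes the medians were 0.033 for S members, -0.29 for mitotic members and -0.0078 for all genes. In cells matched on estimated read depth they were -0.070, -0.24 and -0.043. In the cells matched on detected genes (called gene-matched from here on), 4 of the 41 members were lower by 1 log2 or more. These were Mcm6, Rrm1, Hmgb2 and Stmn1, all among the 18 lower over all kept cells. The background there was 4.99% of the 7518 genes, and no member was higher by 1 log2, against 4.76%. In the cells matched on estimated read depth (depth-matched) 5 of the 41 were lower by 1 log2 or more, against 8.02%. These were Rrm1, 2810417H13Rik, Ccna2, Hmgb2 and Stmn1, also among the 18. Cks2 was higher by 1 log2, against 7.18%. Rrm1, Hmgb2 and Stmn1 were thus past 1 log2 in both matched sets. Members with a lower mean in KO were 29 of 41 in the gene-matched cells, where 50.6% of all genes were below 0. They were 27 of 41 in the depth-matched cells, where 53.01% of all genes were below 0. The values of these 18 genes in both sets stand in brackets after their differences.

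Among the S members, the enzymes that make DNA building blocks included some of the widest CD8 gaps over all kept cells. Rrm1, the large subunit of ribonucleotide reductase (chr7:102441695-102469771, plus strand, GRCm38), was detected in 10 of 77 CD8 KO cells (median of these 288.8 FPKM, highest 645) and in 29 of 72 CD8 WT cells (median 259.02, highest 1148). Its mean level was 1.03 ± 2.75 in KO and 3.07 ± 3.95 in WT (SD over cells), a difference of -2.05 (gene-matched -1.10, depth-matched -2.16). The cells that had Rrm1 thus had similar amounts on both plates, and fewer KO cells had it. Rrm2, the small subunit, whose level is tied to S phase, was detected in 9 KO cells (median 434, highest 2612 FPKM) and 18 WT cells (median 919, highest 2508 FPKM), a difference of -1.14 (gene-matched -0.023, depth-matched -0.075). Tk1, the S phase thymidine kinase, was detected in 10 KO cells (median 195.8, highest 897 FPKM) and 24 WT cells (median 315.4, highest 916 FPKM), and differed by -1.76 (gene-matched -0.93, depth-matched -0.24). In each of these 3 genes the lowest and the median cell of both plates lay under 1 FPKM, so the plates overlapped and differed in how many cells lay above that level.

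Tyms, which makes thymidylate, behaved differently. It was detected in 64 of 77 CD8 KO and 64 of 72 CD8 WT cells, and in 54 of 78 CD4 KO and 66 of 74 CD4 WT cells. The medians of these cells were 4.84 FPKM in CD8 KO, 7.09 FPKM in CD8 WT, 4.05 FPKM in CD4 KO and 3.46 FPKM in CD4 WT. Of the cells with Tyms, 79.4% had under 10 FPKM. Birc5 and Ube2c had the same profile among the mitotic members, with 75.5% and 82.7% of detections under 10 FPKM. For Hmgb2 and Pcna, also widely detected, this share was 6.38% and 8.55%. Detection of Tyms, Birc5 or Ube2c at 1 FPKM therefore covered many cells with a few FPKM and a small set far above that.

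**Figure D3:**
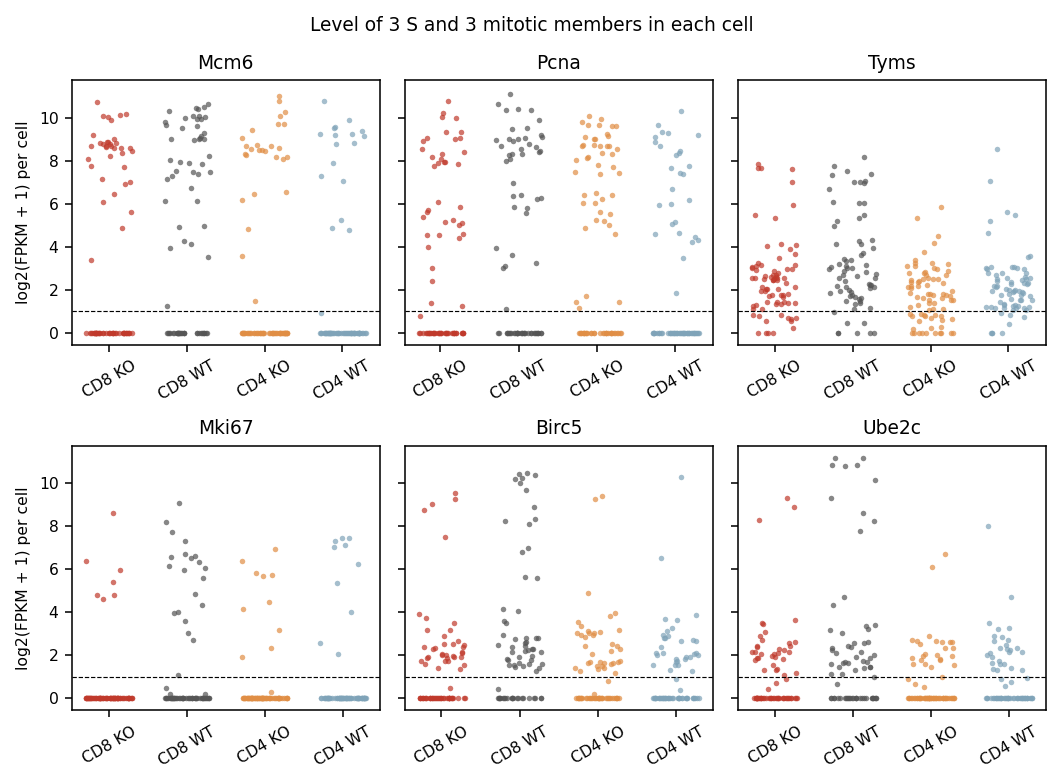
Level of 3 S members (top) and 3 mitotic members (bottom) in every kept cell, as log2(FPKM + 1), by plate. The dashed line is the detection limit of 1 FPKM. Mcm6, Pcna and Mki67 split into cells at 0 and cells far above the line, whereas Tyms, Birc5 and Ube2c have many cells between 1 and 10 FPKM.

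Genes of the replicative helicase were also lower in CD8 KO over all kept cells. Mcm2 to Mcm7 form the ring that unwinds DNA at replication forks. Mcm3 was detected in 16 CD8 KO cells (median 395.4, highest 1454 FPKM) and 26 CD8 WT cells (median 439.6, highest 1341 FPKM), with a difference of -1.43 (gene-matched -0.45, depth-matched -0.066). Mcm6, the most widely detected of the 6, was found in 35 KO cells (median 403, highest 1731 FPKM) and 43 WT cells (median 501, highest 1592 FPKM), with a difference of -1.04 (gene-matched -1.04, depth-matched -0.54). The other 4 differed by -0.91 (Mcm2), -0.88 (Mcm7), -0.87 (Mcm5) and -0.13 (Mcm4). Mcm4 was the S member with the smallest CD8 difference: it was detected in 28 KO cells at a median of 287.1 FPKM and in 31 WT cells at a median of 150.5 FPKM. Gins2, a subunit of the GINS complex that joins the ring into the active helicase, was detected in 2 KO cells, with a highest value of 724 FPKM, and in 14 WT cells, with a median of 216.2 and a highest value of 529 FPKM. Its difference was -1.21 (gene-matched -0.43, depth-matched -0.89), and it was the S member detected in the smallest share of cells over the 4 plates.

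At the replication clamp, Pcna, the ring that holds polymerases on DNA, was detected in 38 CD8 KO cells (median 224.03, highest 1794 FPKM) and 40 CD8 WT cells (median 346.4, highest 2198 FPKM), a difference of -0.90. The share of cells with Pcna was thus close on the CD8 plates, at 49.4% in KO and 55.6% in WT. Its binding partner 2810417H13Rik, the older symbol of Pclaf (chr9:65890237-65903266, plus strand, GRCm38), was detected in 6 KO cells (median 794, highest 1197 FPKM) and 28 WT cells (median 266.9, highest 1514 FPKM), a difference of -1.98 (gene-matched -0.91, depth-matched -1.17). The no-cell well of the CD8 WT plate also held this gene, at 250.6 FPKM, while the other 3 no-cell wells held none of the 41 members at 1 FPKM, and the part of stray RNA in its CD8 WT values was not tested. Of the remaining S members, Uhrf1, which reads newly copied methylated DNA, differed by -0.90. The cyclins E, which drive the start of S phase, differed by -0.87 (Ccne1) and -0.34 (Ccne2). Ccne1 was detected in 7 KO and 15 WT cells and Ccne2 in 7 in KO and 9 in WT, with highest values of 126.2 FPKM for Ccne2 in KO and 238.1 FPKM in WT.

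Among the mitotic members, Hmgb2, a chromatin protein that bends DNA, had the widest CD8 gap. It was detected in 44 of 77 CD8 KO cells (median 136.99, highest 1541 FPKM) and 58 of 72 CD8 WT cells (median 183.8, highest 2482 FPKM). Its mean level was 3.80 ± 3.69 in KO and 6.11 ± 3.57 in WT, a difference of -2.31 (gene-matched -2.20, depth-matched -1.98). This gene (chr8:57511907-57515999, plus strand, GRCm38) was detected well beyond the mitotic-high cells, in 59.4% of the cells that were not mitotic-high by the other members.

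The cyclins that drive entry into mitosis and their kinase were found in few cells. Ccna2, the cyclin of S phase and G2, was detected in 7 CD8 KO cells (median 219.99, highest 1769.6 FPKM) and 19 CD8 WT cells (median 459, highest 2068 FPKM), a difference of -1.46 (gene-matched -0.47, depth-matched -1.01). Ccnb1 was detected in 4 KO cells (median 113.2, highest 181.9 FPKM) and 13 WT cells (median 388.98, highest 756 FPKM), a difference of -1.18 (gene-matched -0.48, depth-matched -0.24). Ccnb2, the other B-type cyclin, was detected in 5 KO cells (median 183.8, highest 807 FPKM) and 14 WT cells (median 664, highest 2357 FPKM), a difference of -1.29 (gene-matched -0.73, depth-matched -0.93). For these 3 cyclins both the number of positive cells and the level within them were lower in KO. Cdk1, the kinase they bind, was detected in 10 KO and 19 WT cells and differed by -0.98. Cks2, which helps that kinase hold its substrates, was the 1 member with a higher mean in CD8 KO: it was detected in 25 KO cells (median 108.8 FPKM) and 21 WT cells (median 229.2 FPKM), a difference of 0.14.

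Genes of chromosome structure and of the centromere were also lower in CD8 KO over all kept cells. Mki67, which coats mitotic chromosomes and is the usual marker of proliferation, was detected in 7 KO cells (median 41.5, highest 395.4 FPKM) and 21 WT cells (median 64.9, highest 549.95 FPKM), a difference of -1.10 (gene-matched -0.82, depth-matched -0.48). Top2a, which untangles DNA, was detected in 12 KO cells (median 142.03, highest 1331 FPKM) and 24 WT cells (median 150.1, highest 882 FPKM), a difference of -1.26 (gene-matched -0.26, depth-matched -0.44). The levels of Top2a among positive cells were close, and the number of such cells was not. Cenpa, the histone of the centromere, was detected in 14 KO cells (median 191.1, highest 319.5 FPKM) and 27 WT cells (median 136.7, highest 1082 FPKM), a difference of -1.39 (gene-matched -0.50, depth-matched -0.34). Cenpe, a kinetochore motor, and Cenpf, a kinetochore protein, were among the 3 mitotic members with the smallest share of cells. Cenpe was in 2 KO and 12 WT cells, with highest values of 19.1 FPKM in KO and 187.8 FPKM in WT and a difference of -0.85. Cenpf was in 3 cells in KO and 9 cells in WT, with highest values of 29.96 FPKM in KO and 141.5 FPKM in WT and a difference of -0.44.

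Birc5, Aurkb and Cdca8 encode parts of the chromosomal passenger complex, which corrects faulty spindle attachments. Birc5 was detected in 37 CD8 KO cells (median 3.93, highest 749.8 FPKM) and 49 CD8 WT cells (median 5.09, highest 1424 FPKM), a difference of -1.37 (gene-matched -0.58, depth-matched 0.024). Aurkb was detected in 6 KO and 13 WT cells, a difference of -0.75, and Cdca8 in 6 in KO and 14 in WT, a difference of -0.82. Ube2c, the enzyme that supplies ubiquitin to the anaphase-promoting complex, was detected in 34 KO cells (median 3.46, highest 645 FPKM) and 42 WT cells (median 4.33, highest 2350.2 FPKM), a difference of -1.14 (gene-matched -0.79, depth-matched -0.59). Cdc20, which activates that complex, was in 3 KO and 10 WT cells, a difference of -0.71.

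The 7 other mitotic members differed by less than 1 log2. Among the checkpoint kinases, Bub1b was in 3 CD8 KO and 14 CD8 WT cells and differed by -0.94, and Bub1 in 4 in KO and 10 in WT and differed by -0.35. The spindle proteins Nusap1, Tpx2 and Kif11 differed by -0.96, -0.61 and -0.49. The kinases Plk1 and Aurka differed by -0.70 and -0.25. Aurka, which works at the spindle poles, was detected in the smallest share of cells of any mitotic member, in 6 CD8 KO cells (highest 339.8 FPKM), 7 CD8 WT cells (highest 654 FPKM), no CD4 KO cell and 1 CD4 WT cell at 65.3 FPKM.

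Both members placed in neither phase were lower in CD8 KO over all kept cells. Stmn1, which destabilises microtubules (chr4:134468320-134473843, plus strand, GRCm38), was detected in 7 KO cells (median 963, highest 3119 FPKM) and 26 WT cells (median 556, highest 3844 FPKM). Its difference of -2.37 (gene-matched -1.36, depth-matched -1.18) was the widest of the 41. Cks1b, a small Cdk-binding protein, was detected in 9 KO cells (median 360.8, highest 1129.8 FPKM) and 20 WT cells (median 545, highest 2131 FPKM), a difference of -1.52 (gene-matched -0.74, depth-matched -0.85). Both were rare outside the mitotic-high cells: Stmn1 was in 96% of mitotic-high cells and 7.61% of others, and Cks1b in 92% and 4.35%.

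**Figure D4:**
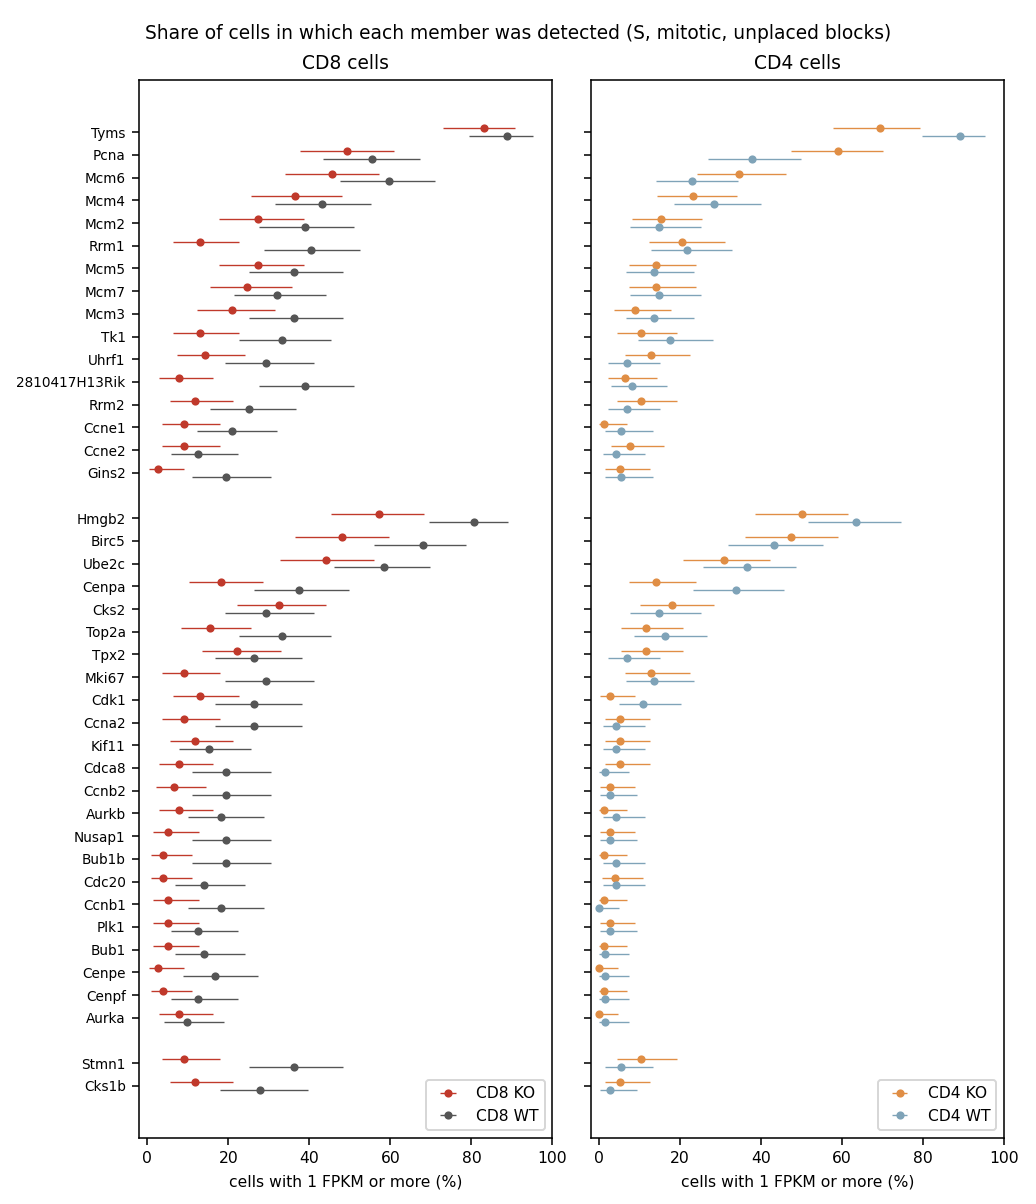
Share of kept cells in which each of the 41 members was detected, CD8 cells on the left and CD4 cells on the right, with exact 95% intervals that cover counting error only. Members are ordered by mean share within the S, mitotic and unplaced blocks. In CD8 cells the KO point lies left of the WT point for every member but Cks2, and in CD4 cells the points lie on both sides of each other.

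Between the CD4 plates the S members did not lean one way, while more mitotic members were lower than higher in KO. A lower mean in KO was found for 9 of 16 S members and 17 of 23 mitotic members. Over all members it was found for 26 and a higher mean for 15, and 53.8% of all genes tested were below 0. By 1 log2 or more, 1 member was lower and 1 higher, against backgrounds of 2.82% lower and 2.82% higher over 6277 genes. The medians were -0.018 over S members and -0.053 over mitotic members, against -0.039 over all genes tested. Pcna was the member that was higher (chr2:132249162-132253314, minus strand, GRCm38): it was detected in 46 of 78 CD4 KO cells (median 271.9, highest 1087 FPKM) and 28 of 74 CD4 WT cells (median 169.5, highest 1266 FPKM), a difference of 1.67. The share of cells with Pcna was 58.97% in CD4 KO (interval 47.3 to 69.99%) and 37.8% in CD4 WT (26.8 to 49.9%). The 46 CD4 KO cells with Pcna include at most the 8 S-high cells of that plate, so most of them held fewer than 6 S members. Cenpa was the member that was lower (chr5:30666777-30674830, plus strand, GRCm38): it was detected in 11 CD4 KO cells (median 210.8, highest 390.2 FPKM) and 25 CD4 WT cells (median 145.3, highest 1101 FPKM), a difference of -1.43. Its share was 14.1% in KO (7.26 to 23.8%) and 33.8% in WT (23.2 to 45.7%).

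Several CD4 values rested on very few cells. Of the 41 members, 17 passed the 10% filter in CD4 cells. Ccnb1 was detected in 1 CD4 KO cell and in 0 of 74 CD4 WT cells, which allows a share of up to 4.86% by the exact interval. Cenpe and Aurka were detected in 0 of 78 CD4 KO cells, which allows up to 4.62%, and in 1 CD4 WT cell each. Cdk1 was in 2 CD4 KO and 8 CD4 WT cells, and Ccne1 in 1 in KO and 4 in WT. Tyms was in 69.2% of CD4 KO cells (57.8 to 79.2%) and 89.2% of CD4 WT cells (79.8 to 95.2%). Mcm6 was in 27 CD4 KO cells (median 368.4 FPKM) and 17 CD4 WT cells (median 567 FPKM), a difference of 0.89. The CD4 differences of most mitotic members rest on few positive cells and were not tested.

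Between the plates labelled WT, CD4 cells had lower levels of the members than CD8 cells. In WT cells all 41 members were lower in CD4 than in CD8, where 76.5% of all genes were, and 27 were lower by 1 log2 or more, against a background of 19.3% of 7258 genes. In KO cells 36 of 41 were lower in CD4, where 66.8% of all genes were. By 1 log2 or more 2 of the 41 were, against a background of 10.4% of 6630 genes. Only 12 S members and 8 mitotic members passed the 10% filter of that background, and the 2 were among them. The 2 were Mcm4, at 1.46 in CD4 KO and 2.89 in CD8 KO cells, and Mcm5, at 1.18 and 2.23 in the same order. In WT the widest gaps were those of Mcm6 (-2.88), Stmn1 (-2.74) and Cks1b (-2.35). The median CD4 minus CD8 difference was -0.46 over S members and -0.29 over mitotic members in KO, against -0.21 over all genes, and -1.64 and -0.99 in WT, against -0.38 over all genes. These comparisons use the same 4 plates as the genotype comparisons, so they are not separate evidence. Pcna and Rrm1 were higher in CD4 than in CD8 within KO, by 0.93 and 0.39, and lower within WT, at -1.64 and -1.55.

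The population library of each plate, 1 well of pooled cells, was read in addition to the single cells. In such a library fewer cycling cells and less RNA per cell cannot be told apart, and the labels do not give the number of cells in it. In CD8 all 41 members were lower in KO, where 47.4% of all genes tested were. By 1 log2 or more 15 were lower, against a background of 13.5% of 11294 genes, and none was higher, against 17.7%. The median difference was -0.61 over S members and -1.18 over mitotic members, with 0.054 over all genes tested. Ube2c had the widest gap, at 199.5 FPKM in CD8 KO and 1045 FPKM in CD8 WT. Ccnb1 was at 92.6 in KO and 317.2 FPKM in WT, Cdc20 at 90.4 in KO and 303.8 in WT, and Cenpe at 4.39 in KO and 19.6 in WT. Compared with single cells, gaps were narrower for some members and wider for others. Cenpa differed by -1.66, Ccnb2 by -1.57, Ccnb1 by -1.77 and Ube2c by -2.38 log2, each wider than over the single cells. Among those with narrower gaps, Rrm1 was at 164.8 FPKM in KO and 298.5 FPKM in WT, Hmgb2 at 515 in KO and 913 in WT, and 2810417H13Rik at 262.1 in KO and 360.6 in WT. Ccne1 and Plk1 hardly differed, at 62.3 and 133.1 FPKM in KO and 62.6 and 137.1 FPKM in WT.

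The CD4 population libraries did not follow the CD4 single cells. In them 24 members were higher in KO and 17 lower, where 49.7% of all genes tested were lower. By 1 log2 or more, 11 were higher, against a background of 21.6% of 10971 genes, and 4 lower, against 20.2%. The members of the phase groups differed in this: 8 of 16 S members were higher by 1 log2 or more, and 3 of 23 mitotic members were. Of the genes outside the members, 16 of 32 other S genes were higher by that much and 2 lower, with a median of 1.12. Of 34 other mitotic genes 10 were higher by that much and 5 lower, with a median of 0.25, unlike the mitotic members in sign. The S members had a median difference of 0.97 and the mitotic members -0.30, against 0.0077 over all genes tested. Rrm2 was at 312.1 FPKM in CD4 KO and 8.18 FPKM in CD4 WT, whereas it was detected in 8 KO and 5 WT single cells. Mcm5 was at 260.7 FPKM in KO and 31.2 in WT, Mcm7 at 159.9 in KO and 30.5 in WT, and Gins2 at 61.2 in KO and 8.59 in WT. Pcna was also higher in KO here, at 358.2 FPKM against 162.7 FPKM in WT. Of the mitotic members, Birc5 was at 159.5 FPKM in KO and 60.7 in WT, while Mki67 was at 17.9 in KO and 40.7 in WT, Tpx2 at 21.3 in KO and 59.99 in WT, and Bub1 at 0.470 in KO and 6.17 in WT. Each value is 1 library, with no replicate.

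**Figure D5:**
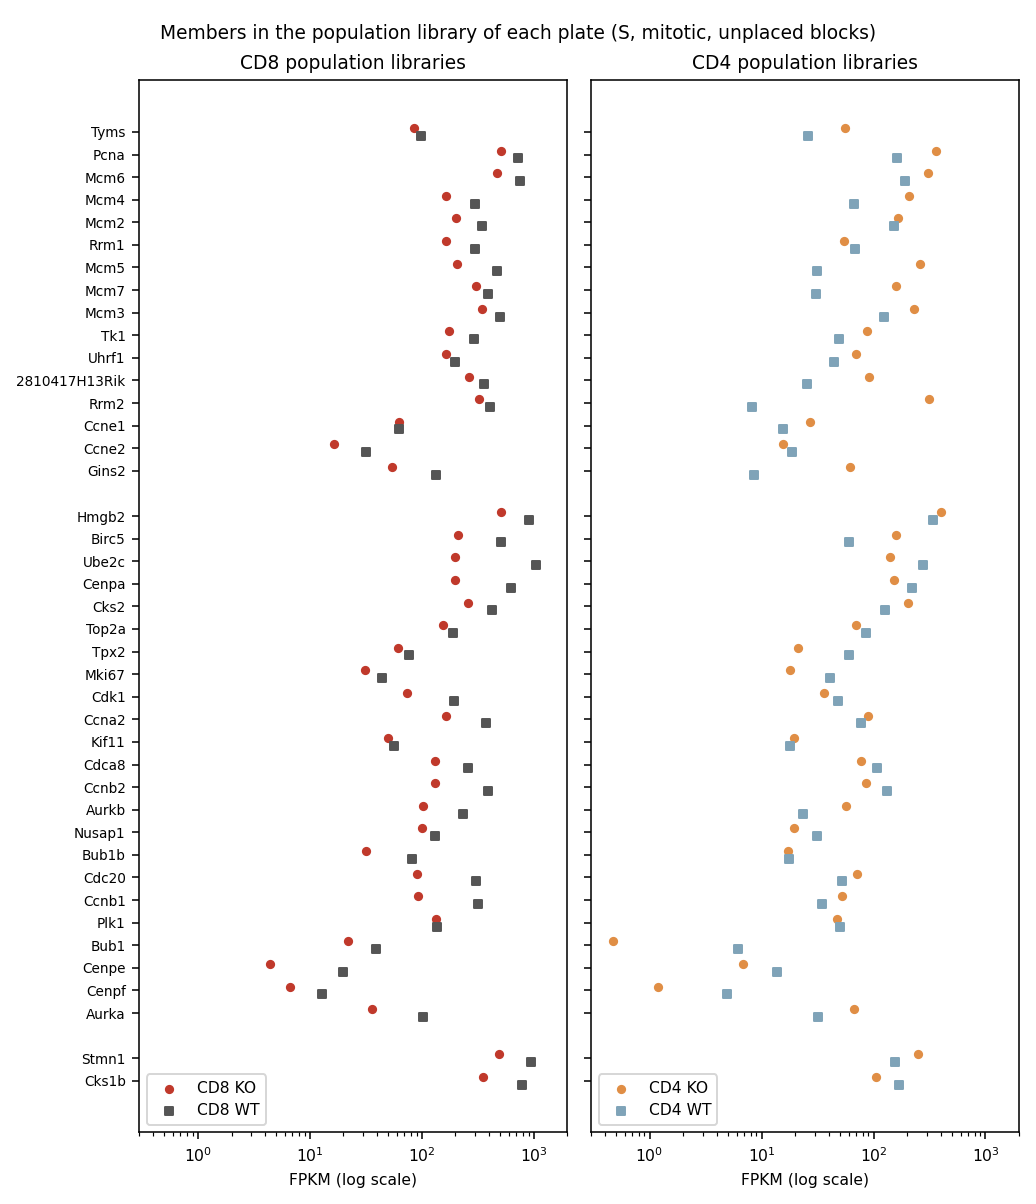
FPKM of the 41 members in the population library of each plate, on a log axis, CD8 on the left and CD4 on the right. Circles are libraries labelled KO and squares libraries labelled WT. In CD8 every circle lies left of its square, and in CD4 14 of 16 S members have the circle on the right.

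The members differed in how closely they kept to the mitotic-high cells. For each member these cells were classed again without it, which gave 23 to 25 mitotic-high cells over the 4 plates. The S member 2810417H13Rik was in 100% of the mitotic-high cells and 7.25% of the others. Bub1 was in 64% and 0%, the 1 member not found outside the mitotic-high cells. Ccna2 was in 95.8% of mitotic-high cells and 3.61% of the others, Ccnb2 in 75% and 1.81%, and Rrm2 in 80% and 7.25%. Mki67 was in 83.3% and 10.1%. At the other end, Tyms was in 92% and 81.5%, Hmgb2 in 100% and 59.4%, Birc5 in 100% and 47.5%, and Pcna in 92% and 46.7%. The S members Mcm4 and Mcm6 were found in 76% and 92% of mitotic-high cells and outside them in 28.6% and 35.9% of cells. The mitotic-high cells also held more detected genes than the others, and the part of this in these shares was not tested.

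The genes most like the member counts included genes of replication and chromosome structure. Over all kept cells, with each plate centred, the 8 non-member genes with the highest Spearman correlation with the number of S members were Ncapg2 (0.47), Lig1 (0.45), Rfc5 (0.44), Hells (0.41), Haus4 (0.40), Rfc2 (0.40), Gmnn (0.40) and Mad2l1 (0.39). Lig1 encodes the ligase that joins replicated fragments, Rfc5 and Rfc2 load the Pcna ring, and Gmnn keeps origins from firing again. For the number of mitotic members they were Ncapg2 (0.47), Ncapd2 (0.41), Gmnn (0.41), Mad2l1 (0.40), Hist1h2ao (0.39, 1 of many near-identical histone genes, so uncertain), Smc2 (0.37), Nucks1 (0.36) and Rfc5 (0.36). Ncapg2, Ncapd2 and Smc2 are condensin subunits and Mad2l1 is a spindle checkpoint protein. The number of detected genes alone correlated at 0.49 and 0.45, so these values are a description of cells that share plate and depth.

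The other S genes and other mitotic genes leaned the same way as the members in CD8 cells, and less far. Of 32 other S genes 31 were lower in CD8 KO, 6 by 1 log2 or more, with a median of -0.55, where 68.1% of all genes were lower and 9.91% by 1 log2 or more. Of 34 other mitotic genes 33 were lower, 6 by 1 log2 or more, with a median of -0.49. Gmnn was at 0.98 in KO and 2.89 in WT, Slbp, which binds histone mRNA, at 2.42 in KO and 4.30 in WT, and Tipin, a fork protection factor, at 1.21 in KO and 2.59 in WT. Rpa2 and Atad2 differed by -1.24 and -1.10. Among the mitotic genes Cbx5, Tacc3, Cdca3, Ctcf, Ncapd2 and Nuf2 differed by -1.13, -1.10, -1.10, -1.06, -1.03 and -1.01. In CD4 cells 12 of 32 other S genes and 15 of 34 other mitotic genes were lower in KO, where 53.8% of all genes were, and Slbp was the 1 gene of both lists past 1 log2, at 3.28 in KO and 1.97 in WT.

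Cell cycle regulators lay near the background of all genes, and the listed genes linked to rest were mostly higher in CD8 KO. Of 33 regulators 23 were lower in CD8 KO (69.7%, against 68.1% of all genes), 2 by 1 log2 or more and 2 higher by that much, with a median of -0.18 against -0.22 over all genes. Cdk2, the partner of the cyclins E, was at 0.58 in KO and 1.97 in WT, and Cdk6 at 1.18 in KO and 2.30 in WT. Ccnd2, a D-type cyclin that lymphocytes use, was higher in CD8 KO, at 5.47 against 3.83 in WT, and so was the Rb relative Rbl2, at 3.41 against 2.25. In CD4 cells Ccnd2 and Rbl2 were higher in KO too, by 1.04 and 1.99, and Cdk2 and Cdk4 were lower, at differences of -1.09 and -1.09. Of 12 genes linked to quiescence or resting T cells 9 were higher in CD8 KO and 3 lower, where 68.1% of all genes were lower. By 1 log2 or more 5 were higher, against a background of 2.22%, and the median was 0.93. The list was chosen with earlier results of these data known, so these counts describe it and are not separate evidence. Il7r, the receptor of a survival cytokine, was at 5.42 in KO and 1.38 in WT, and Tcf7, a factor of naive and memory-like T cells, at 4.93 in KO and 2.04 in WT. Btg1, Pdcd4 and Btg2 were higher by 2.00, 1.36 and 1.34. In CD4 cells none of the 12 passed 1 log2.

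The mitotic-high cells were also counted by T cell state, and no difference between states was tested. In CD8 KO, 2 of 9 cells with Havcr2, which encodes the receptor TIM-3, were mitotic-high (22.2%, 2.81 to 60.01%), against 3 of 68 without it (4.41%, 0.919 to 12.4%). In CD8 WT they were 14 of 33 with Havcr2 (42.4%, 25.5 to 60.8%), against 3 of 39 without it (7.69%, 1.62 to 20.9%). The KO intervals overlap and the WT intervals do not, and the median number of detected genes was 3235 with Havcr2 and 2212 without in KO, and 3247 with it and 2146 without in WT. With Pdcd1, which encodes PD-1, they were 4 of 25 cells in CD8 KO, against 1 of 52 without, and 15 of 45 in CD8 WT, against 2 of 27 without. With Tcf7 they were 3 of 47 cells in CD8 KO (6.38%), against 2 of 30 without (6.67%), which rests on few cells. In CD8 WT they were 1 of 19 with Tcf7 (5.26%), against 16 of 53 without (30.2%). S-high cells were 5 of 47 with Tcf7 in CD8 KO (10.6%, 3.55 to 23.1%), against 9 of 30 without (30%, 14.7 to 49.4%). In CD8 WT the S-high cells were 4 of 19 with Tcf7 (21.1%), against 21 of 53 without (39.6%). In CD4 the mitotic-high cells, 1 in KO and 2 in WT, all had Foxp3, the factor of regulatory T cells, which was detected in 37 of 78 CD4 KO and 27 of 74 CD4 WT cells overall.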

How the data were processed

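The deposited values were TMM-normalized FPKM of 23420 gene symbols per well, made by the authors. The submitters' processing notes name Bowtie, RSEM and build mm10, without versions. The file holds no read counts, so depth is unknown beyond the number of detected genes and a relative read depth estimated from the steps between low values, with transcript lengths of GENCODE M21. Python 3.11.15, pandas 2.3.3, numpy 2.4.6 and scipy 1.17.1 were used. Detection was set at 1 FPKM, kept cells at 1000 genes, and levels were means of log2(FPKM + 1). All 384 wells were mapped by title, no kept cells had identical values, and no doublet caller was run. The background was taken over genes detected in 10% of cells, averaged over both plates.

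The members and lists were chosen with earlier results of these data known. Every member was accounted for. Named with full values were members past 1 log2 between genotypes, the 3 highest and 3 lowest of each phase group by share of cells, the 8 non-member genes most correlated with each count, and up to 8 listed genes past 1 log2, of which 1 is not reported here. Of the listed genes, 3 were found under an older symbol and 1 was absent. Labels that give the same source number do not pair replicates. Of the computations, the read depth estimate alone was tested on simulated wells. Alternatives varied the cell filter, detection limit, class cut, pseudocount, scaling, member choice and matching of cells. Those on the marker rule at 10 FPKM, on read depth and without Tyms, Birc5 and Ube2c were chosen after seeing the data.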

Additional observations from a re-analysis of the deposited data

Results flagged for a closer look

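The S members differed between genotypes in opposite directions in the population libraries of the 2 cell types. Their median difference, KO minus WT, was 0.97 log2 in the CD4 libraries and -0.61 log2 in the CD8 libraries, and this contrast was not tested, since each value rests on 1 library per genotype.

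The difference in the share of S-high cells had opposite signs in the 2 cell types over all kept cells. Among CD4 cells it was 0.797 percentage points, KO minus WT, from 8 of 78 KO and 7 of 74 WT cells, so it rests on about 1 cell. Among CD8 cells it was -16.5 points. The 2 differences were not tested against each other. In cells matched on detected genes they were 1.72 points in CD4 and 0 points in CD8. They had the same sign in cells matched on estimated read depth, at -1.89 points in CD4 and -2.94 points in CD8, and with the limit at 4 of 16 members, at -1.39 points in CD4 and -20.7 points in CD8.

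The no-cell well of the CD8 WT plate held 2810417H13Rik at 250.6 FPKM. It was 1 of 11 genes at 1 FPKM or more in that well and made up 6.49% of the well's summed FPKM, which was the 5th highest share. The gene was listed at 0 in the other 3 no-cell wells.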

How the results depend on the processing

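Shares and medians were recomputed under up to 12 alternatives. The mitotic-high share was lower in KO under 11 of 11 alternatives in CD8. It was also lower under 11 of 11 in CD4, but there each value rests on 0 to 3 KO and 1 to 3 WT cells, too few to read a direction from. The S-high share was lower in CD8 KO under 10 of 11, and in CD4 KO under 2 of 11. Of the recomputed shares and medians, 22 moved by more than their spread and 7 changed sign. The S-high share at 4 of 16 members was 37.7% in CD8 KO, 58.3% in CD8 WT, 25.6% in CD4 KO and 27.03% in CD4 WT. It was 29.4% in CD8 KO matched on read depth, and 23.5% in CD8 WT matched on detected genes. The mitotic-high share was 13.9% in CD8 WT at 12 of 23 members, and 0 in CD4 KO matched on detected genes.

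The CD8 median of S members was 0.033 in cells matched on detected genes, a change of sign, and -0.070 matched on read depth, -0.75 with cells of 500 genes, -1.33 and -0.62 with pseudocounts of 0.1 and 10, -0.80 with FPKM rescaled to 1 sum, and -0.61 in the population libraries. The CD8 median of mitotic members was -0.29 matched on detected genes, -0.24 matched on read depth, -1.41 and -0.49 with those pseudocounts, and -1.87 from arithmetic means.

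The CD4 median of S members, -0.018, changed sign to 0.065 with cells of 500 genes, 0.093 with cells of 2000 genes, 0.16 matched on detected genes, 0.20 without cells carrying RNA of another type, 0.013 from arithmetic means and 0.97 in the population libraries. The CD4 median of mitotic members was -0.61 from arithmetic means, -0.30 in the population libraries and -0.17 over members in 10% of cells. Birc5 in CD8 changed sign to 0.024 when matched on read depth. The causes were not tested.

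The planned removal of cells by markers at 1 FPKM left 2 CD8 KO and 1 CD4 KO cells, since Tyr was above that limit in nearly every cell, at plate medians of 7.12 to 8.72 FPKM, and was not run. No paired analysis was possible because each group has 1 plate and the results come from no test. Leaving out a replicate was not possible for the same reason.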
